A study of Drosophila melanogaster with 2 samples.

Results

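Peaks of the forkhead family transcription factor fd96Cb were followed along chromosome 4 of Drosophila melanogaster. Every peak placed on that chromosome was taken, whatever its strength, from each of the 4 peak lists. The list of replicate 3 held 404 such peaks among its 30000, the list of replicate 2 held 42 of 30000, the pooled list 150 of 30000 and the optimal set 17, which is 0.296% of its peaks. The optimal set is labelled by the irreproducible discovery rate (IDR) procedure and is called the IDR set below. That procedure in general weighs how well peak ranks agree between replicates. Here its 17 peaks held the same ranks as in the pooled list, and 10 had no replicate 2 summit within 100 bp. The samples were whole embryos aged 0 to 24 h from a transgenic fly line that stably carries fd96Cb fused at its C terminus to GFP, a fluorescent tag. Chromatin was sonicated to 200 to 800 bp and precipitated with an antibody to GFP, although the antibody entry in the labels names fd96Cb. Both samples, biological replicates 2 and 3, share the line, the age and the tag and form a single group. No cell type was separated, so each peak is a mixture over all cells of the embryo. With 1 library per replicate, biological and technical differences between the replicates cannot be told apart, no test over samples is possible, and the intervals given below are 95% intervals that cover counting error only.

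Forkhead proteins bind DNA through a winged-helix domain, and many of them recognise a core of the form TAAACA. Chromosome 4, the dot chromosome, is the smallest of the fly's chromosomes. Genes and remnants of mobile elements such as INE-1 and 1360 alternate along its assembled arm. The arm is packaged with heterochromatin protein 1 and coated by the chromosome-specific protein POF, yet many of its genes are active, and several of them encode regulators of development.

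The sequences under a few chromosome 4 summits are shown as examples of summits found in both replicates and in replicate 3 alone. Each runs 5′ to 3′ on the plus strand of Release 6 (dm6) with 75 bases either side of the summit of the IDR set. The first 3 summits were found in both replicates. They lay in the promoter of PlexA at chr4:1027225-1027375, between genes 19092 bp downstream of the start of lgs at chr4:424744-424894, and at an inner promoter of Sox102F at chr4:807527-807677. The next 2 were found in replicate 3 but not in replicate 2, whose nearest summits were 63398 and 64011 bp away. They lay upstream of zfh2 at chr4:497818-497968 and at RpS3A at chr4:67184-67334. Capitals in these 5 mark the longest run of A and T, which was 22 bases at PlexA and 9 to 12 at the others. The last, at CG11076 at chr4:1030962-1031112, was the only one of the 17 IDR summits with TAAACA within 50 bp, and its capitals mark that core or its reverse complement. It too was found in replicate 3 but not in replicate 2, whose nearest summit was 3730 bp away. The IDR peak at Cals, of pooled rank 361, was stronger than all printed here but PlexA and had no replicate 2 partner. It lay in a 3′ UTR and was left out.
PlexA: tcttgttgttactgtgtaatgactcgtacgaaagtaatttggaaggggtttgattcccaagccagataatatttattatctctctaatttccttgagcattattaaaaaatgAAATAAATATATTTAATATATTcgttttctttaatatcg
lgs: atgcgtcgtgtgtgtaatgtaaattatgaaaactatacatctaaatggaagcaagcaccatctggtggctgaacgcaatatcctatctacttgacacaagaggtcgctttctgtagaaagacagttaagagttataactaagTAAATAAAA
Sox102F: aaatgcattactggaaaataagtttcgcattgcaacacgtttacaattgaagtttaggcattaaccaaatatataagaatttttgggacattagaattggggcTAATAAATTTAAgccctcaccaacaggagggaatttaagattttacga
zfh2: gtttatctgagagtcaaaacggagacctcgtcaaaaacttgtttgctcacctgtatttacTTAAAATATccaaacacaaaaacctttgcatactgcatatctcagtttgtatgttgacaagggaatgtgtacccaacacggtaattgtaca
RpS3A: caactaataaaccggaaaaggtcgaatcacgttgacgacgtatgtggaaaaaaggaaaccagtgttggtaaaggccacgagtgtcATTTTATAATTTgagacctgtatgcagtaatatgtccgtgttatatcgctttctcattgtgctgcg
CG11076: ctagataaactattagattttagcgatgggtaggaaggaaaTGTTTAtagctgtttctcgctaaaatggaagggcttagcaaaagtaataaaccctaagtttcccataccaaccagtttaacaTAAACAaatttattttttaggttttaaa
GC content over the 151 bases was 27.2% at PlexA, 35.8% at lgs, 32.5% at Sox102F, 37.1% at zfh2, 41.1% at RpS3A and 31.1% at CG11076. The summits found in both replicates thus ran from 27.2% to 35.8%. Those found in replicate 3 alone, CG11076 among them, ran from 31.1% to 41.1%. These few printed summits describe no wider group.

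The number of chromosome 4 peaks differed 9.62-fold between the replicates. Replicate 3 listed 404 (1.35% of its list, Wilson interval 1.22 to 1.48) and replicate 2 listed 42 (0.14%, 0.104 to 0.189). Chromosome 4 makes up 1.01% of the bases of the 6 chromosome arms. On the other 5 arms the ratio of replicate 3 to replicate 2 peaks lay between 0.888 and 1.16. Per Mb, chromosome 4 carried 299.7 peaks in replicate 3 (Poisson interval 271 to 330), above the 209.2 to 238.5 of the other arms. In replicate 2 it carried 31.2 per Mb (22.5 to 42.1), below their 193.6 to 256.4. The pooled list gave 111 per Mb against 206.8 to 244.6, and the IDR set 12.6 against 37.3 to 47.2. Chromosome 4 was therefore the densest arm in replicate 3 and the sparsest in the other 3 lists. Those lists are not independent, since the pooled list draws on both libraries and the 17 IDR peaks here are pooled peaks.

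**Figure D1:**
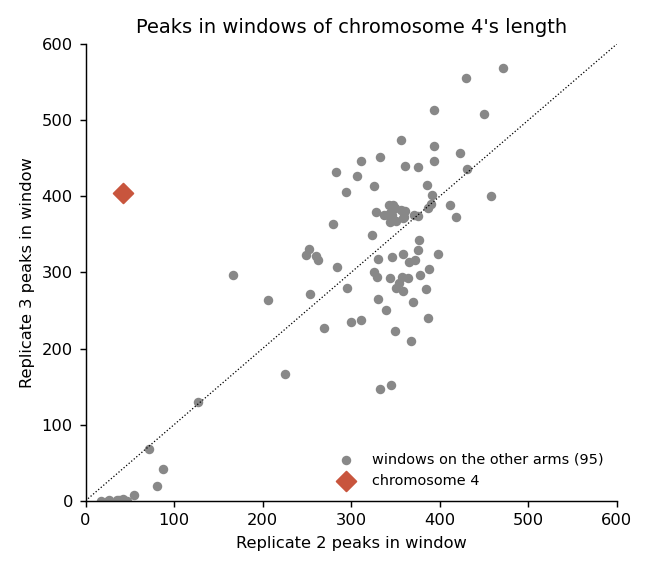
Peaks of replicate 2 (x axis) and replicate 3 (y axis) in windows as long as chromosome 4, counted in peaks per window. Grey points are the 95 windows on the other arms, the diamond is chromosome 4 and the dotted line marks equal counts; chromosome 4 stands at 42 and 404, while the ratio in the other windows reached at most 1.78.

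The same contrast was set against 95 windows of chromosome 4's length on the other arms, as the plot of peaks per window shows. The ratio of replicate 3 to replicate 2 peaks there ran from 0 to 1.78, with a median of 0.995. A count as low as the 42 of replicate 2 occurred in 6 windows, and a count as high as the 404 of replicate 3 in 18. The 6 low windows lay towards an end of 2R, 3L or 3R, where replicate 3 held 0 to 3 peaks. Mobile elements cover 24.8% of chromosome 4, and 3 windows reached at least that share. They held 81 to 167 peaks in replicate 2 and 19 to 297 in replicate 3. Annotated elements covered 2.16% to 7.58% of each of the 6 low windows, which are not among these 3. Each replicate's count on chromosome 4 was thus within the range of the windows, that of replicate 2 only through the 6 low windows. The ratio of the counts was not within their range.

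Most of the surplus in replicate 3 sat low in the rank order. Peaks were ranked within each list by the signal value, the authors' own measure of strength, whose scale is not given. Among the 1000 strongest peaks of each list, chromosome 4 had 5 in replicate 3 and 2 in replicate 2. The strongest peaks of a list, as many as the IDR set holds, are called its top tier below and make up 19.1% of either list. The top tier held 24 of the 404 chromosome 4 peaks in replicate 3 and 8 of the 42 in replicate 2, a ratio of 3, where the other arms gave 0.954 to 1.05. The ratio was 3.53 for the strongest 10000, 7.22 for 15000 and 8.48 for 20000.

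**Figure D2:**
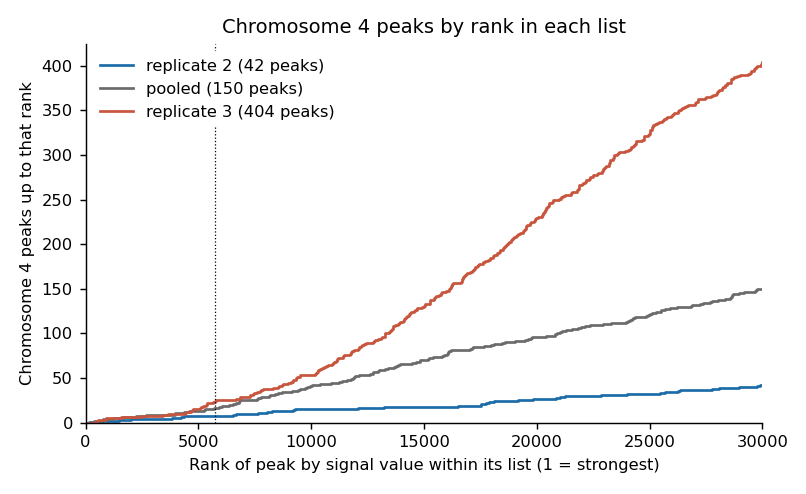
Cumulative number of chromosome 4 peaks (y axis) against rank by signal value within each list (x axis, 1 is the strongest). The curves end at 42 for replicate 2, 150 for the pooled list and 404 for replicate 3, and the dotted line marks the end of the top tier, where replicate 3 stands at 24 and replicate 2 at 8.

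The curve of replicate 3 was flat at first and then steepened. Successive blocks of 5000 ranks held 16, 37, 77, 99, 95 and 80 of its chromosome 4 peaks. Those of replicate 2 held 8, 7, 3, 9, 5 and 10, with no such rise. The median chromosome 4 peak stood at rank 18777 in replicate 3 (percentile 37.4, where 100 is strongest), 17641.5 in replicate 2 (41.2), 15851.5 in the pooled list (47.2) and 2701 in the IDR set (53.0). The median of these peaks thus lay below the middle of each of the 3 full lists, and near the middle of the IDR set. Median percentiles of the other arms ran from 48.5 to 53.1 in replicate 3 and from 48.0 to 53.6 in replicate 2. In the pooled list they ran from 48.2 to 53.3, so the distance there was small.

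The deposited −log10 q-values separated the replicates further. A q-value of at most 0.05 was reached by 48.3% of all replicate 3 peaks and by 124 of the 404 on chromosome 4 (30.7%, 26.4 to 35.4). In replicate 2 it was reached by 19.9% of all peaks and by 8 of 42 on chromosome 4 (19.0%, 9.98 to 33.3), a share near that of the list. With that limit chromosome 4 made up 0.856% of replicate 3 peaks and 0.134% of replicate 2 peaks. The median −log10 q on chromosome 4 was 0.764 in replicate 3, against 1.20 for the whole list, and 0.157 in replicate 2, against 0.212. Most peaks of a list had the same width. It was 390 bp for 396 of the 404 peaks (88.2% over all arms in replicate 3) and 370 bp for 39 of the 42 (95.1% in replicate 2).

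The strongest chromosome 4 peak of the pooled list lay at PlexA (FBgn0025741), which encodes a receptor for semaphorins in axon guidance. It spanned 1027122 to 1027465 with its summit 199 bp upstream of the transcription start site (TSS). Its rank was 277 in the pooled list, 163 in replicate 2, where its signal value was 499.6, and 443 in replicate 3, where it was 518.5. No other chromosome 4 peak was among the strongest 500 of both replicates.

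The next, at Cals (FBgn0039928), was strong in replicate 3 and had no counterpart in replicate 2. Cals encodes calsyntenin, a membrane protein of the cadherin superfamily, and the peak at 1113135 to 1113495 lay in its 3′ UTR, where the end of the Pax family gene sv overlaps. It ranked 361 in the pooled list and 397 in replicate 3, with a signal value of 554.7, the highest on chromosome 4 in that replicate. The nearest replicate 2 summit was 33765 bp away.

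Peaks near transcription factor genes followed both patterns. At Sox102F (FBgn0039938), which encodes a Sox family factor, the peak at 807436 to 807771 ranked 709 in replicate 2 and 891 in replicate 3, with its summit 255 bp upstream of an inner TSS. Near fuss (FBgn0039932), a Ski and Sno family gene, the peak at 982834 to 983056 stood 4458 bp upstream of the TSS and ranked 2031 and 1592. Upstream of zfh2 (FBgn0004607), a zinc finger homeodomain gene, a pair of peaks at 497797 to 498023 and 498415 to 498804 ranked 903 and 5096 in replicate 3. Replicate 2 had no summit within 63398 bp of the stronger of them.

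Around lgs (FBgn0039907), which encodes the Wnt pathway adaptor Legless, the IDR set held 3 peaks. The strongest, at 424684 to 424946, ranked 1465 in replicate 2 and 549 in replicate 3. Another, at 434308 to 434697, lay on remnants of the elements 1360 and INE-1 and ranked 4349 and 5070. The promoter peak at 443866 to 444255, 150 bp upstream of the TSS, ranked 4435 in replicate 3 and lay 9566 bp from the nearest replicate 2 summit. The distal peaks were thus shared by the replicates and the promoter peak was not.

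Another 5 promoter peaks of the IDR set were strong in replicate 3 and had no partner in replicate 2. RpS3A (FBgn0017545), a ribosomal protein gene, had its peak at 67123 to 67369, 52 bp upstream of the TSS, at rank 2356. The peak of gw (FBgn0051992), which acts in microRNA silencing, spanned 659977 to 660160 and ranked 2472, with the nearest replicate 2 summit 559 bp away. Asator (FBgn0039908), a tubulin kinase gene, had one at 489313 to 489702 at rank 3439. The peak at 1030842 to 1031231 ranked 4681. Its summit lay within 1000 bp of a TSS of both CG11076 (FBgn0039929) and ATPsynbeta, the gene of an ATP synthase subunit. At CaMKII (FBgn0264607), a calcium-dependent kinase gene, the peak at 1053865 to 1054254 ranked 4880. The closest replicate 2 summit to any of these 5 was the one near gw.

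At apolpp (FBgn0087002), which encodes a lipid carrier of the haemolymph, the IDR set held a peak of each kind. The peak at 1060854 to 1061243, with its summit 80 bp inside the gene, ranked 4247 in replicate 2 and 5737 in replicate 3. The one at 1064285 to 1064674 ranked 3664 in replicate 3 and lay 1003 bp from the nearest replicate 2 summit. The last IDR peak, at 1156268 to 1156657 in introns of CG32017 (FBgn0052017) and the kinesin gene Kif3C, ranked 3812 in replicate 2 and 7289 in replicate 3. It was the only IDR peak on chromosome 4 that was outside the top tier of replicate 3.

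**Figure D3:**
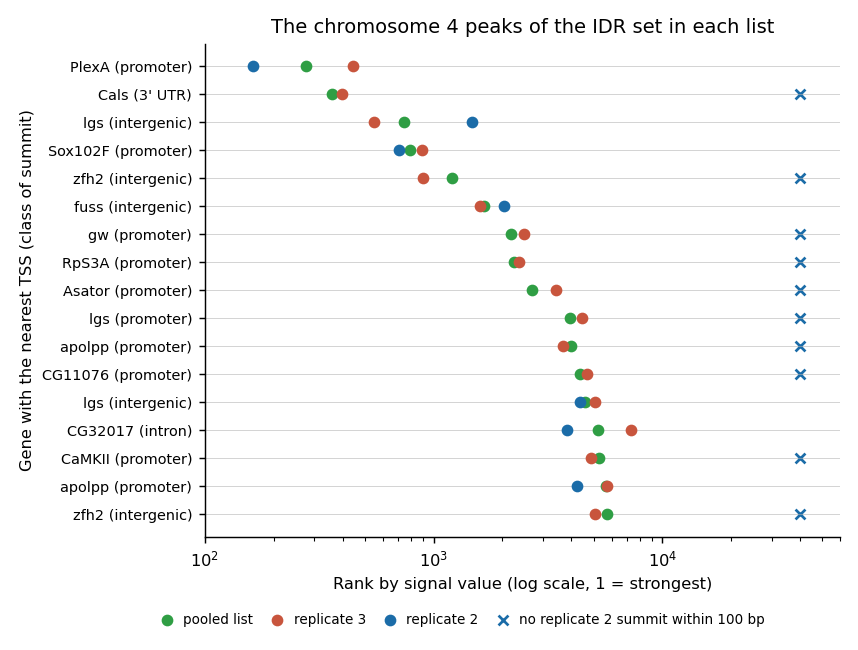
Rank by signal value (x axis, log scale, 1 is the strongest) of the 17 chromosome 4 peaks of the IDR set in the pooled list (green), replicate 3 (red) and replicate 2 (blue), 1 row per peak named by the gene with the nearest TSS. Crosses at the right edge, drawn past the end of the list, mark the 10 peaks without a replicate 2 summit within 100 bp.

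All 17 IDR peaks had a replicate 3 summit within 100 bp (97.1% over all arms), and 7 had a replicate 2 summit that near (41.2%, Wilson interval 21.6 to 64.0), where 95% of IDR peaks over all arms did. The ranks by list are set out in the plot of the IDR peaks. Of the 17, 9 had no replicate 2 summit within 1000 bp (52.9%), against 1.96% of IDR peaks on the other arms. Within 10000 bp 5 still had none (29.4%), against 0.297%. Replicate 2 held 31.2 peaks per Mb on chromosome 4 and 193.6 to 256.4 on the other arms, and this sparseness alone lengthens such distances. The 7 shared peaks ranked from 277 to 5694 in the pooled list, and the 10 others from 361 to 5705, so both kinds spanned the set. Promoters held 3 of the 7 and 7 of the 10. All 17 were themselves pooled peaks, with equal start, end and signal value, so the IDR set is not independent of the pooled list here. They were all of the chromosome 4 peaks in its top tier, 17 of 150, and held the same ranks in both. Since the top tier is as large as the set, this match follows from the cut. That tier is 19.1% of the pooled list. The weakest inside was the peak at zfh2 of pooled rank 5705 with a signal value of 129.8. The nearest outside were a peak upstream of ey at 696796 to 697185, of rank 5920 with 125.1, and one 11405 bp upstream of dati, of rank 6069 with 121.8.

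The replicates shared 21 chromosome 4 summits in their full lists. Of the 404 replicate 3 summits, 21 had a replicate 2 summit within 100 bp (5.20%, 3.42 to 7.82), where 33.1% over all arms did. Seen from replicate 2, the same comparison gave 21 of 42 (50%), again beside 33.1% over all arms. With 42 summits in replicate 2, most of the 404 could have no partner, so the low share largely restates the counts. For replicate 3 ranks up to 1000 the matched share was 3 of 5, against 99.1% on the other arms. In the top tier it was 6 of 24, against 88.6%, and for ranks past 15000 it was 2.92% against 11.7%. The shortfall on chromosome 4 was thus present among the strongest replicate 3 peaks too, which were fewer than the 42 replicate 2 summits. Full matching was possible there, but replicate 2 was sparse, with 8 chromosome 4 peaks in its own top tier. Among neither the strong nor the weak peaks can the shortfall be separated from the counts.

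In the other direction the strong peaks were found again. All 8 chromosome 4 peaks in the top tier of replicate 2 had a replicate 3 summit within 100 bp, while 9.80% of those on the other arms had none. Besides the 7 in the IDR set, this group held a peak 5199 bp upstream of dati, a zinc finger gene, at 400619 to 400988. It ranked 4346 in replicate 2 and 20498 in replicate 3. The strongest replicate 2 peak without a partner lay in an intron of dati at 378874 to 379243 and ranked 6662. The 21 replicate 2 peaks without a partner had a median rank of 20860 and the 21 with one of 8032.

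Beyond the IDR peaks, 8 chromosome 4 peaks were in the top tier of replicate 3. They lay upstream of dati (ranks 4398 and 4702), 964 bp upstream of Sox102F (5347), upstream of ey (5398), at Mitf (5405), at pho (4751), in an intron of sv (5207) and at CG31999 (5666). The last 3 genes are named because they complete this group, after their values were seen. The peak at pho, which encodes a DNA-binding Polycomb group protein, was the only one of the 24 without a pooled summit within 100 bp, and the share without one was 1.77% among strong replicate 3 peaks of the other arms. Its nearest replicate 2 summit was 25444 bp away.

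The pooled list followed replicate 3 more than replicate 2. Of its 150 chromosome 4 summits, 71.3% had a replicate 3 summit within 100 bp (61.9% over all arms) and 18% a replicate 2 summit (54.3%). By source, 21 had both, 86 replicate 3 only, 6 replicate 2 only and 37 neither. Conversely, 297 of the 404 replicate 3 peaks had no pooled summit within 100 bp (73.5%), against 37.6% on the other arms. Because the pooled list was itself made from both libraries, part of this overlap follows from its making. The number of summits, 42 in replicate 2 and 150 in the pooled list, also limits how many could be partners.

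Promoters, meaning summits within 1000 bp of the TSS of a protein-coding gene, held 141 of the 404 replicate 3 summits (34.9%, 30.4 to 39.7), beside 37.5% over all arms. They cover 15.2% of the bases of chromosome 4 and 20.3% of the other arms. Replicate 2 gave 8 of 42 (19.0%, 9.98 to 33.3; 27.1% over all arms), the pooled list 51 of 150 (34%; 32.8%) and the IDR set 10 of 17 (58.8%, 36.0 to 78.4; 43.7%). Among the 24 chromosome 4 peaks in the top tier of replicate 3 the share was 62.5% (15 peaks, 42.7 to 78.8), against 43.7% in the top tier on the other arms. Upstream of the TSS lay 9 of the 10 IDR promoter summits and 78 of the 141 in replicate 3 (55.3%), where the other arms gave 79.1% and 57.2%.

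Exons took a larger share on chromosome 4 than elsewhere in the replicate 3 list. Coding exons outside promoters held 51 of the 404 summits (12.6%, 9.73 to 16.2), against 3.68% on the other arms, and 3′ UTRs held 24 (5.94%), against 2.20%. Coding exons make up 17.9% of chromosome 4 and 10.7% of the other arms. Introns held 104 (25.7%, against 35.5%) and intergenic sequence 82 (20.3%, against 20.7%). In replicate 2, coding exons held 8 of 42 (19.0%, against 8.13% on the other arms) and intergenic sequence 15 (35.7%, against 26.2%). None of the 17 IDR summits was in a coding exon (Wilson upper bound 18.4%), where the other arms had 0.0873%.

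Nearly every protein-coding gene of chromosome 4 had a promoter summit in replicate 3. Of the 80 genes, 70 had one (87.5%, 78.5 to 93.1), beside 57.4% over all arms. Replicate 2 gave 9 (11.25%, 6.03 to 20.0; 51%), the pooled list 33 (41.25%, 31.1 to 52.2; 55.9%) and the IDR set 11 (13.75%; 21.9%). A summit between close genes counts for each of them.

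**Figure D4:**
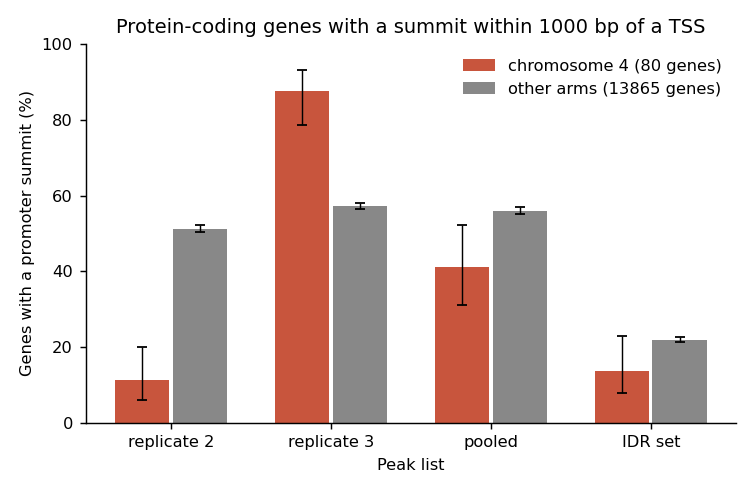
Share of protein-coding genes with a summit within 1000 bp of a TSS (y axis, percent) in each peak list (x axis), for the 80 genes of chromosome 4 (red) and the 13865 of the other arms (grey). Error bars are Wilson 95% intervals over genes; chromosome 4 stands at 11.25% in replicate 2 and 87.5% in replicate 3, below and above the other arms.

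Both replicates gave a promoter summit at 8 genes, namely PlexA, Sox102F, gw, apolpp, CG32017, Kif3C, CG11360 and Zyx, the gene of the focal adhesion protein zyxin. Replicate 3 alone gave one at 62 genes. Replicate 2 alone gave one at fd102C, itself a forkhead family gene, where it was a weak peak of rank 28961. Neither replicate gave one at CG1909, CG31997, CG32006, CG33521, Mpv17, NfI, RhoGAP102A, bt and onecut, which are named after their values were seen. The gene bt encodes a giant titin-like muscle protein and, at 52075 bp, is long, while Mpv17 spans 687 bp, so both long and short genes were among these.

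The gene lists below are read beside the counts for all 80 chromosome 4 genes, which were 70 in replicate 3, 9 in replicate 2, 33 in the pooled list and 11 in the IDR set. Of 13 transcription factor genes, 10 had a promoter summit in replicate 3, 2 in replicate 2 (Sox102F and fd102C), 6 in the pooled list and 1 in the IDR set (Sox102F). The pooled summits of best rank after Sox102F were at ey, a Pax6 gene of eye development (5920), Mitf, a basic helix-loop-helix gene (6837), and ci, the effector of Hedgehog signalling (8929). The 3 without one in replicate 3 were fd102C, NfI and onecut.

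The list of chromatin and transcription genes, which also holds the kinase gene Asator, gave 6 of 6 in replicate 3, 0 in replicate 2, 3 in the pooled list and 2 in the IDR set. The pooled ranks were 2701 at Asator, 3956 at lgs and 9518 at MED26, a Mediator subunit gene. Signalling ligands and receptors gave 7 of 7 in replicate 3, 1 in replicate 2 (PlexA), 4 in the pooled list and 1 in the IDR set. After PlexA came myo, a TGF-beta family ligand gene that shares the peak of ey at rank 5920, then PlexB, another plexin (7790), and mGluR, a glutamate receptor gene (24670). Of all 80 chromosome 4 genes, 87.5% had one in replicate 3 and 11.25% in replicate 2, so these small counts show nothing particular to either list.

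Of the 9 genes of the synapse and neuron, 9 had a promoter summit in replicate 3, 1 in replicate 2 (Kif3C), 2 in the pooled list and 0 in the IDR set. The pooled ranks were 14643 at Kif3C and 15189 at Ank, which encodes an ankyrin. Housekeeping, translation and metabolism genes gave 17 of 18 in replicate 3, 2 in replicate 2 (gw and apolpp), 9 in the pooled list and 4 in the IDR set, these being gw, RpS3A, apolpp and ATPsynbeta. The gene without one in replicate 3 was bt. The lists were not tested against each other or against the other genes.

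Counted inside gene bodies, the most replicate 3 summits were in pan, the TCF factor of Wnt signalling (15), Sox102F (15), Asator (12), zfh2 (11) and unc-13, which primes synaptic vesicles (11). In replicate 2 Sox102F had 1 and the other 4 genes had 0. The gene bodies of pan, zfh2 and unc-13 span 44945, 39065 and 44508 bp. By contrast ey had 6 in replicate 2 and 9 in replicate 3, and fd102C had 3 and 1. The first group was picked for its replicate 3 counts, and ey and fd102C were named after their values were seen. Of all 80 genes, 13 had a summit inside in replicate 2 and 65 in replicate 3. How evenly the difference was spread over the genes was not tested.

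Between genes the counts of the replicates differed from place to place. The 11235 bp between fuss and toy, another Pax6 gene, held 7 summits in replicate 2 and 10 in replicate 3. The 41351 bp between dati and lgs held 7 and 19, and the 12815 bp between Asator and zfh2 held 0 and 12. All intergenic stretches together (329812 bp) held 18 and 134, and the gene bodies (1018319 bp) held 24 and 270. No list had a summit in the 27438 bp between JYalpha and PlexB or in the 76372 bp from Cadps to the end of the assembly. These stretches were chosen after their values were seen.

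Replicate 3 had a summit in 13 of the 14 bins of 100 kb along chromosome 4, and replicate 2 in 10. In these bins from the start of the assembly it had 33, 26, 23, 30, 50, 25, 39, 21, 37, 33, 39, 32, 16 and 0 summits. Replicate 2 had 1, 0, 0, 4, 7, 1, 2, 8, 4, 7, 6, 2, 0 and 0. Between positions 400001 and 1200000 lay 37 of the 42 replicate 2 summits (88.1%), 276 of the 404 in replicate 3 (68.3%), 113 of 150 in the pooled list (75.3%) and 16 of 17 in the IDR set (94.1%). The lone IDR peak outside that span was the one at RpS3A.

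**Figure D5:**
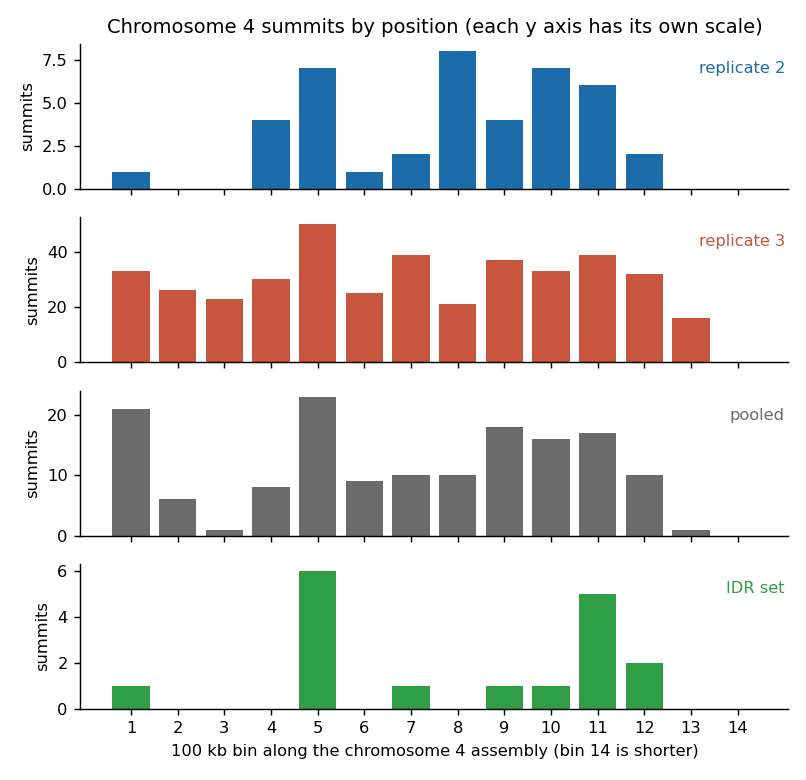
Number of chromosome 4 summits (y axis, a scale of its own in each panel) in successive 100 kb bins of the assembly (x axis) for each peak list. The fullest bin of replicate 3 is the fifth with 50 of 404 summits, and the first 400 kb hold 112 of them but 5 of the 42 of replicate 2.

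The fullest bin of replicate 3, from 400001 to 500000, held 50 summits (12.4%, 9.52 to 15.9), and it also held 23 of the pooled list and 6 of the IDR set. It takes in most of the stretch between dati and lgs and most of that between Asator and zfh2. The largest gap between neighbouring summits was 370985 bp in replicate 2, from 3248 to 374233, and 40795 bp in replicate 3, from 1599 to 42394. The median spacing in replicate 3 was 1401 bp, within the 1386.5 to 1592 bp of the other arms. In replicate 2 it was 3340 bp, above their 2257 to 2767.5 bp.

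Summits on chromosome 4 lay in annotated mobile elements more often than summits over all arms. In replicate 3, 66 of 404 did (16.3%, 13.1 to 20.3), beside 0.743% over all arms. The figures were 12 of 42 in replicate 2 (28.6%, 17.2 to 43.6; 0.617%), 31 of 150 in the pooled list (20.7%; 0.58%) and 2 of 17 in the IDR set (11.8%; 0.313%). Such elements cover 24.8% of the bases of chromosome 4 and 5.22% of the other arms. The replicate 3 share was below that coverage of chromosome 4. In replicate 2, the pooled list (15.0 to 27.8) and the IDR set (3.29 to 34.3) the interval included it. INE-1, the most frequent family with 344 of the 566 annotated elements, held 43 replicate 3 summits (10.6%) and 8 replicate 2 summits (19.0%) and covers 7.22% of the bases. Among replicate 3 summits, 7 of the 21 with a replicate 2 partner lay in an element (33.3%) and 59 of the 383 without one (15.4%).

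The base composition under the summits was close to that of the chromosome. Mean GC within 50 bp was 35.7% ± 7.96 (SD over 404 peaks) in replicate 3, 37.9% ± 9.87 (n = 42) in replicate 2, 36.2% ± 7.93 (n = 150) in the pooled list and 32.8% ± 8.39 (n = 17) in the IDR set. Windows of the same width tiling chromosome 4 had 35.3%, and those of the other arms 42.2%. On the other arms the means were 38.6%, 41.6%, 39.4% and 30.4% in the same order of lists. Only in the IDR set was the chromosome 4 mean above that of the other arms (32.8% against 30.4%). Replicate 3 summits had a mean GC of 35.5% ± 7.52 with a replicate 2 partner (n = 21) and 35.7% ± 7.99 without one (n = 383). Replicate 2 summits had 34.7% ± 8.35 with a replicate 3 partner and 41.1% ± 10.4 without one (n = 21 each).

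The forkhead core TAAACA was searched on both strands within 50 bp of each summit. It was found at 32 of the 404 replicate 3 summits (7.92%, 5.67 to 11.0), beside 12.3% over all arms. Replicate 2 gave 2 of 42 (4.76%; 9.59%), the pooled list 9 of 150 (6%; 11.2%) and the IDR set 1 of 17 (5.88%, 1.05 to 27.0; 15.7%), which is the CG11076 summit printed above. The core occurred in 11.6% of the 13177 chromosome 4 windows of equal width and in 9.23% of those on the other arms. On chromosome 4 the share at summits was thus not above that of the chromosome itself in any of the lists, although the interval reached past it in replicate 2 (1.32 to 15.8) and the IDR set. In the top tier of replicate 3 the core was at 3 of 24 summits (12.5%, against 16.0% on the other arms), and within 100 bp, a wider window, at 18.1% of all replicate 3 summits (against 22.6%). The count of windows with these letters describes the sequence and shows no binding.

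Several measured properties moved with the difference between the replicates. The replicate lists were made from separate alignments with the same control alignment, per the notes deposited with the files, and the control was not used here. Replicate 3 had the higher median −log10 q, 1.20 against 0.212 over all arms. It also had a lower GC at summits of the other arms, 38.6% against 41.6%. The read depth of both libraries is unknown. The part of depth, control, base composition or embryo sample in the 9.62-fold difference on chromosome 4 was not tested.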

How the data were processed

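Chromatin immunoprecipitation with sequencing was deposited as peak lists in dm6, with no read totals, so depth is unknown. The authors made a list per replicate from its own alignment and a control alignment they share, per the deposited notes, plus a pooled list and the IDR set. The signal value of a peak is a score that the authors' peak calling gave it before the lists were deposited, on a scale not stated. The −log10 q-value was likewise computed by the authors in peak calling, as deposited. Which aligner, caller and IDR threshold they used is not given in the sources used here. Chromosome 4 peaks were taken by the chromosome column and ranked by signal value within their list. Genes came from Ensembl release 115, sequence and mobile elements from Release 6 of the RefSeq genome.

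A promoter summit lay within 1000 bp of a protein-coding TSS; the rest were assigned in turn to 5′ UTR, then coding exon, then 3′ UTR, then intron, then intergenic sequence. Summits within 100 bp were called shared. Shares carry Wilson and densities Poisson 95% intervals. No test was run, since the 2 libraries form 1 group. Named genes are those nearest to the IDR peaks and to the 10 strongest chromosome 4 peaks of each replicate, up to 4 per gene list with the best pooled promoter summit, and up to 5 with the most summits in the gene body. Of 55 list entries 54 matched, with 1 gene entered under a pair of names. The members, lists and rules were chosen with earlier results of these data known. Capitals in the printed sequences were to mark TAAACA, but 5 of the 6 hold none, so runs of A and T are marked there; this was decided after the sequences were seen. Matching and motif search were tested on simulated data, where 120 of 120 planted shared summits and 80 of 80 planted motif windows were found. Alternatives covered list length, merged intervals, promoter window, TSS set, matching distance, window and bin size and each list alone. Scripts ran in Python 3.11.15 with scipy 1.17.1, pandas 2.3.3, numpy 2.4.6 and matplotlib 3.10.9.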

Additional observations from a re-analysis of the deposited data

How the results depend on the processing

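The chromosome 4 share was 0.2% for the strongest 1000 peaks of replicate 2, and 0.5%, 0.418%, 0.53% and 1.15% for the strongest 1000, the top tier and the strongest 10000 and 20000 of replicate 3. The ratio of replicate 3 to replicate 2 was 2.5, 3 and 3.53 for the first 3 of these limits and 8.7 with merged intervals. In the top tier of replicate 3 the promoter share was 62.5%, the matched share 25% (with replicate 2 limited likewise), mean GC 33.6% and the TAAACA share 12.5%. The promoter share was 22.3% with a window of 500 bp, 47.0% with 2000 bp and 40.6% with the starts of all annotated genes. The matched share was 2.97% within 50 bp and 7.43% for any overlap. The TAAACA share was 2.72% within 25 bp, 18.1% within 100 bp and 1.73% for GTAAACA. The fullest bin held 6.19% with 50 kb bins and 18.6% with 200 kb bins. Leaving out either replicate gave promoter shares of 19.0% to 34.9%, median percentiles of 37.4 to 41.2, GC of 35.7% to 37.9%, TAAACA shares of 4.76% to 7.92% and fullest bins of 12.4% to 19.0%. The pooled list put the median at percentile 47.2. The IDR set gave a promoter share of 58.8%, a median percentile of 53.0, GC of 32.8% and a fullest bin of 35.3%. The pooled list and the IDR set as alternatives were added after the data were seen. In all, 31 alternatives moved a value beyond its counting interval, the spread between the replicates or, for the ratio, 1.5 times, and 18 did not. Another 5, without replicate 2, equal the reported value by construction, since that value comes from replicate 3 alone. The cause was not tested.

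Many listed peaks had high q-values (median −log10 q of 0.212 in replicate 2), so counts in the full lists depend on where each list ends. With 42 peaks in replicate 2 and 17 in the IDR set, shares there carry wide intervals. Peaks are not replicates, and neighbouring genes can share a summit.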

Other observations

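The composition of chromosome 4 changed towards the end of the assembly that lies past Cadps. Mobile elements covered 15.6% to 25.5% of the bases in each of the first 12 bins of 100 kb, 43.5% in the next and 95.4% in the last, shorter bin. GC was 44.2% in the last bin and 33.3% to 37.7% in the others. The last bin held no protein-coding gene and no summit of any list. The bin before it overlaps 3 genes and held 16 summits of replicate 3, 1 of the pooled list and 0 of replicate 2. Across the first 12 bins, the count of replicate 3 ran from 21 to 50.

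Replicate 2 was densest, with 8 summits, in the bin from 700001 to 800000, where replicate 3 had 21, its lowest count in the first 12 bins. That bin is taken up largely by ey and bt and overlaps 3 genes in all. It led by little, since the bins from 400001 and 900001 held 7 replicate 2 summits each. With bins of 50 kb and 200 kb, the fullest of replicate 2 began at 400001 and 800001. The bin was picked after its values were seen.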
